A study of Mus musculus with 10 samples.

Results

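The genes described here encode receptors through which T cells touch other cells: Cd2 and its ligand Cd48, the SLAM family receptors Slamf1, Slamf6, Ly9 and Cd84, the adaptor Sh2d1a, and the paired receptors Cd5 and Cd6. They were taken by gene name from the deposited count table, where all 9 of them were found among 54532 genes, and all 9 passed the filter on low counts that left 21414 genes for testing. RNA came from regulatory T cells (Tregs), amplified with Smart-seq2, which copies whole transcripts of few cells, after the Tregs had been sorted as CD45+CD3+CD4+CD25+GFP+. The 5 Tumor libraries came from colon tumours of Apc Min/+ Foxp3 DTR mice, which carry a truncating allele of the Wnt pathway inhibitor Apc and form intestinal tumours. The 5 WT libraries came from the colon of Foxp3 DTR mice without that allele. Mice of both groups thus carried Foxp3 DTR, a diphtheria toxin receptor expressed under Foxp3, and all were males 16 weeks old on C57BL/6. Whether libraries of one group came from separate mice was not in the labels, so the p-values measure only the spread between these libraries, which may be technical.

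CD2 is an adhesion receptor of T and NK cells, and in the mouse its ligand is CD48, a protein held in the membrane by a lipid anchor and found on most blood cells. SLAM family receptors mostly bind a copy of themselves on the neighbouring cell and carry tyrosine motifs that recruit SAP, the small adaptor encoded by Sh2d1a, which links them to the kinase FYN. CD5 and CD6 are scavenger receptor family proteins that sit near the T cell receptor, CD5 damping its signal and CD6 binding ALCAM, an adhesion molecule of antigen-presenting and epithelial cells. The question the series addresses is crosstalk of Tregs with mregDCs, a mature and regulatory state of dendritic cells, and these receptors act where T cells and dendritic cells meet.

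Libraries held 3054435 to 7747699 counts in Tumor and 1676229 to 8412887 counts in WT. The geometric mean of 12 T cell genes that include none of the contact receptors (among them Cd3d, Cd3e, Cd3g, Cd247, Cd4, Lck, Zap70, Lat and Thy1) was 221 to 402 CPM (counts scaled to library size, with the TMM factors of edgeR) in Tumor and 14.1 to 88.8 CPM in WT. Foxp3 stood at 36.9 to 148 CPM in Tumor and 3.87 to 39.7 CPM in WT. Reads of these genes were thus found in both groups, at low levels in WT, where Foxp3 held 14 to 109 reads per library. Reads unrelated to expression, gauged below, ran at 6.38 to 9.78 per kilobase in WT, and Foxp3 has 3989 bases. Its lowest WT library, at 14 reads, thus lay below that background, and its highest, at 109 reads, lay above it. Whether the WT reads of Foxp3 as a group exceed that background was not tested. Summed over 10 epithelial genes, the libraries held 42.3 to 4097 CPM in Tumor, 24123 and 30185 CPM in WT replicates 1 and 2, and 120.1 to 161 CPM in WT replicates 3 to 5.

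All 9 contact receptor genes had a higher mean in Tumor than in WT, with log2 fold changes (Tumor over WT) of 2.74 to 3.89 for Cd2, Cd48, Cd5 and Cd6 and of 1.12 to 2.16 for Slamf1, Slamf6, Ly9, Cd84 and Sh2d1a. Cd48, Cd84, Cd5 and Cd6 (4 of 9) passed the test as higher in Tumor, 0 passed as lower, and 7 of 9 were higher at an unadjusted p below 0.05, as were 7.75% of all genes tested (8.31% were lower at that level). The test was edgeR's quasi-likelihood test with Benjamini-Hochberg adjustment over all 21414 genes, and a gene was called at an adjusted p below 0.05. Over all genes it called 293 higher and 47 lower, so that 1.37% were called higher and 1.59% in either direction. DESeq2 called 6 of the 9 higher, adding Cd2 and Slamf1, against 1.33% of the 48656 genes it tested, and over all genes it called 645 higher and 1592 lower. In 7 of the 9 genes the Tumor libraries were all above the WT libraries, a separation that 4.38% of all genes tested showed in that direction. The median log2 fold change of the 9 genes was 2.16, against -0.20 over all genes tested. In bulk libraries a smaller share of T cells and less RNA of a gene per cell cannot be told apart, which bears on each of these differences.

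Cd2 (ENSMUSG00000027863, chromosome 3, 101275899 to 101287939, mm10, minus strand) stood at 524, 510.1, 961, 383 and 309 CPM in Tumor replicates 1 to 5 and at 17.1, 30.3, 107.5, 117.6 and 3.63 CPM in WT replicates 1 to 5. The groups did not overlap, yet the WT libraries spread widely, from 8 reads in replicate 5 to 323 reads in replicate 4. Cd2 averaged 537 ± 253 CPM in Tumor and 55.2 ± 53.3 CPM in WT (SD, n = 5 each). Its log2 fold change was 3.28 ± 0.84 (SE) and missed the threshold (adjusted p = 0.0543). Cd48 (ENSMUSG00000015355, chromosome 1, 171682009 to 171705258, plus strand), the ligand gene, stood at 158, 214, 167, 196 and 92.7 CPM in Tumor and at 10.1, 11.2, 5.16, 26.6 and 2.72 CPM in WT. The lowest Tumor library exceeded the highest WT library several fold. Cd48 rose by 3.89 ± 0.65 log2 units (adjusted p = 0.00612), and 0.308% of all tested genes had a higher fold change. Its call held in all 10 fits that left out 1 library (adjusted p = 0.00444 to 0.0327). Cd48 was also the gene called under each of RLE, upper-quartile and no composition factors, with the replicate number as a block and with a filter of 10 CPM in 5 libraries, where the other 8 genes were not called.

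Cd5 (ENSMUSG00000024669, chromosome 19, 10718143 to 10738974, minus strand) stood at 241, 421, 507, 261 and 169 CPM in Tumor and at 11.2, 29.6, 34.3, 83.0 and 81.2 CPM in WT. Cd6 (ENSMUSG00000024670, chromosome 19, 10789341 to 10830058, minus strand) stood at 246, 408, 539, 219 and 243 CPM in Tumor and at 6.55, 25.4, 56.3, 97.9 and 38.6 CPM in WT. For both genes Tumor replicates 2 and 3 were the highest libraries, WT replicate 1 was the lowest, and the groups did not overlap. Cd5 rose by 2.74 ± 0.67 log2 units (adjusted p = 0.0444) and Cd6 by 2.88 ± 0.71 (adjusted p = 0.0441). These calls lay close to the threshold. Of the 10 fits that left out 1 library, Cd5 stayed called only without WT replicate 4 or 5 and Cd6 only without WT replicate 4, with adjusted p up to 0.141 and 0.145 in the others and log2 fold changes of 2.45 to 3.03 and 2.54 to 3.37.

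Among the SLAM receptors that bind themselves, Cd84 (ENSMUSG00000038147, chromosome 1, 171839697 to 171890718, plus strand) was the one called. It stood at 80.4, 130.1, 149, 185 and 97.7 CPM in Tumor and at 20.8, 33.2, 12.7, 35.3 and 41.3 CPM in WT, with no overlap. It rose by 2.16 ± 0.52 log2 units (adjusted p = 0.0406). Across the 10 fits with 1 library omitted it stayed called only without WT replicate 2 or 5 (adjusted p up to 0.138 in the others). Slamf1 (ENSMUSG00000015316, chromosome 1, 171767127 to 171801184, plus strand), also known as CD150, stood at 137, 138, 166, 183 and 70.9 CPM in Tumor and at 39.8, 24.5, 15.02, 64.8 and 44.5 CPM in WT. Its lowest Tumor library, replicate 5, lay just above its highest WT library, replicate 4. The log2 fold change of 1.88 ± 0.54 did not pass (adjusted p = 0.0895).

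Ly9 (ENSMUSG00000004707, chromosome 1, 171588624 to 171607410, minus strand), also known as CD229, stood at 34.8, 47.7, 63.5, 42.8 and 61.0 CPM in Tumor and at 2.34, 7.46, 25.4, 13.8 and 24.9 CPM in WT. The groups did not overlap, and the log2 fold change of 1.77 ± 0.60 did not pass (adjusted p = 0.158). Slamf6 (ENSMUSG00000015314, chromosome 1, 171917515 to 171953170, plus strand), known in the mouse as Ly108, stood at 43.6, 124, 83.1, 141 and 55.5 CPM in Tumor and at 16.1, 18.4, 76.5, 75.3 and 20.4 CPM in WT. Here the groups overlapped, since WT replicates 3 and 4 lay above Tumor replicates 1 and 5. Slamf6 had the smallest log2 fold change of the 9 genes, 1.12 ± 0.58 (adjusted p = 0.357). The adaptor gene Sh2d1a (ENSMUSG00000005696, chromosome X, 42502453 to 42529330, plus strand) stood at 70.5, 70.0, 71.7, 63.7 and 36.9 CPM in Tumor and at 3.51, 18.2, 1.41, 49.1 and 47.2 CPM in WT. Tumor replicates 1 to 4 were close to each other and above all WT libraries, and WT replicates 4 and 5 were above Tumor replicate 5. Its log2 fold change of 1.39 ± 0.71 did not pass (adjusted p = 0.344).

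**Figure D1:**
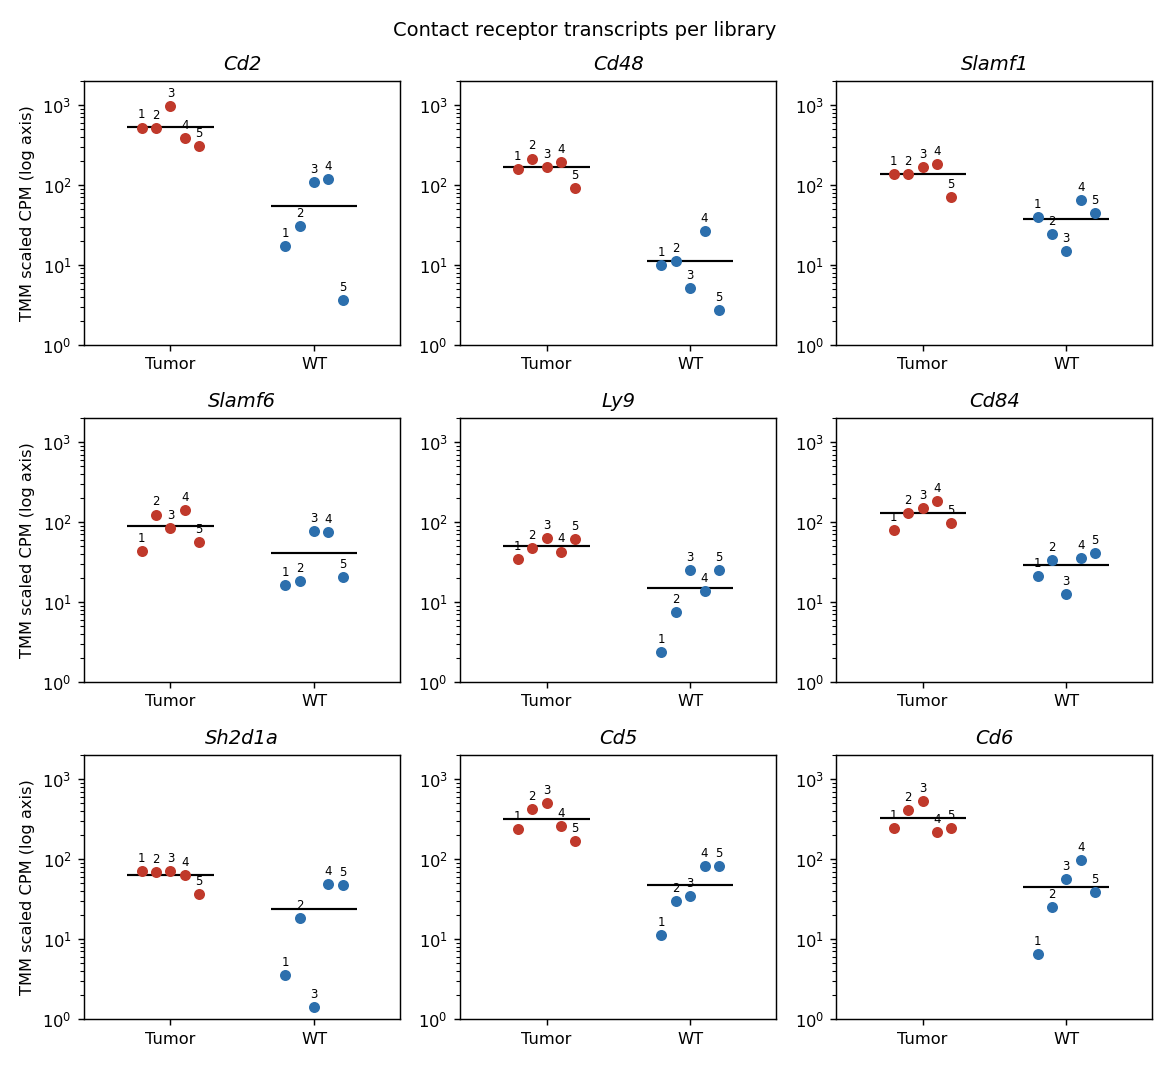
TMM scaled CPM (log axis) of the 9 contact receptor genes in each of the 5 Tumor libraries (red, left) and 5 WT libraries (blue, right), with replicate numbers above the points and black lines at group means. Tumor lies wholly above WT except for Slamf6 and Sh2d1a.

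The mean receptor levels also differed between the WT libraries with many epithelial reads, replicates 1 and 2, and the other WT libraries. Cd2, Cd5, Cd6, Ly9, Slamf6 and Sh2d1a averaged 76.2, 66.1, 64.3, 21.4, 57.4 and 32.6 CPM in WT replicates 3 to 5 and 23.7, 20.4, 16.0, 4.90, 17.3 and 10.9 CPM in WT replicates 1 and 2. For Cd48, Cd84 and Slamf1 the corresponding values were closer, 11.5, 29.8 and 41.4 CPM in replicates 3 to 5 and 10.6, 27.0 and 32.1 CPM in replicates 1 and 2. Single libraries went against these means, among them Cd2 in WT replicate 5 (3.63 CPM) and Sh2d1a in WT replicate 3 (1.41 CPM). Both values lay below those of WT replicates 1 and 2 for the same gene. With WT replicates 3 to 5 left out, all 9 genes passed as higher in Tumor (log2 fold changes of 2.15 for Slamf1 to 4.47 for Cd2), as did 2.32% of all genes in that fit, where 696 were called higher and 629 lower. With WT replicates 1 and 2 left out 5 passed, namely Cd2, Cd48, Cd84, Cd5 and Cd6, as did 6.4% of all genes.

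To set the receptors beside other T cell genes of the same libraries, each library was also scaled to the 12 T cell reference genes. That scaling moved the median log2 fold change of all genes by -3.33, to -3.52, with 20 genes called higher (0.0934%) and 19142 called lower. The median of the contact receptors became -1.22, which was 2.30 above that of all genes, against 2.36 above it on TMM. A change of scaling moves all genes by a similar amount, so this gap could change little and is no separate result. None of the 9 was higher than the T cell genes at an adjusted or an unadjusted p below 0.05. Cd48 (0.82 ± 0.77, adjusted p = 0.306), Cd2 (0.65 ± 0.75, 0.402), Cd6 (0.07 ± 0.69, 0.925) and Cd5 (-0.46 ± 0.74, 0.542) stood near the T cell genes, within intervals that still allow changes of either sign. The other 5 genes had values below 0. Slamf6 was lower than the T cell genes (-1.72 ± 0.71, adjusted p = 0.0265), while 89.4% of all genes were called lower on this scaling. It stayed called without WT replicates 1 and 2 (adjusted p = 0.0175) and not without WT replicates 3 to 5 (0.0555). Sh2d1a (-1.79 ± 0.87, adjusted p = 0.0547), Slamf1 (-1.55 ± 0.74, 0.0524), Ly9 (-1.32 ± 0.86, 0.141) and Cd84 (-1.22 ± 0.73, 0.112) did not pass with all libraries. On the same scaling without WT replicates 3 to 5, Slamf1 (adjusted p = 0.00391) and Cd84 (0.0236) were called lower, as were 71.2% of all genes. Without WT replicates 1 and 2, Sh2d1a was called lower (adjusted p = 0.0489) beside Slamf6, as were 56.1% of all genes.

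**Figure D2:**
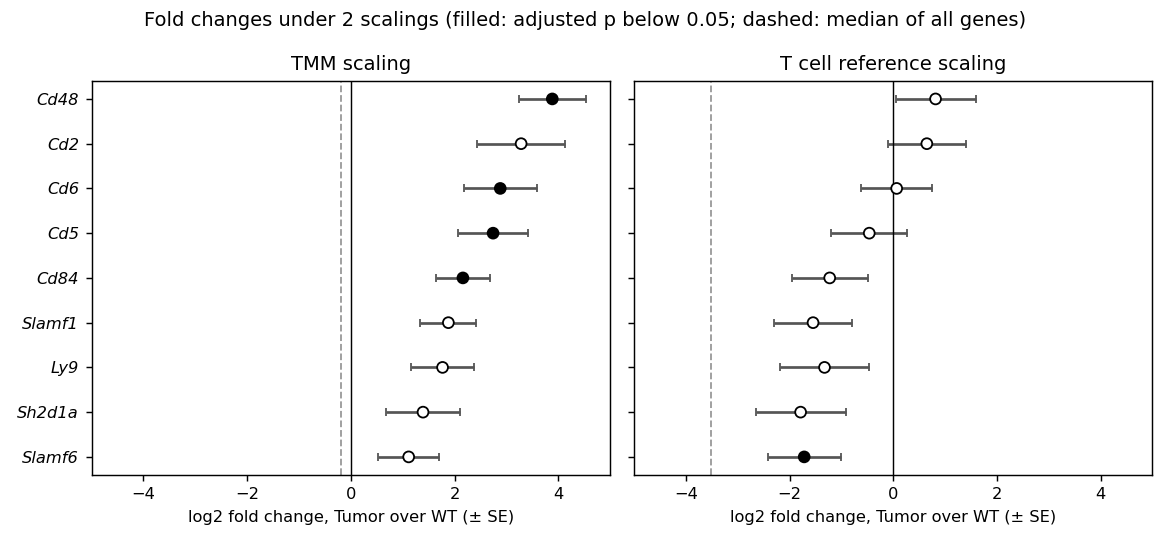
Log2 fold changes of Tumor over WT with SE bars for the 9 genes (5 libraries a group), on TMM scaling (left) and with libraries scaled to 12 T cell reference genes (right). Filled points passed at an adjusted p below 0.05, and the dashed line is the median of all genes tested, -0.20 on the left and -3.52 on the right.

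The ratio of a gene to the geometric mean of the T cell reference genes was also read library by library. For every contact receptor gene it spanned a narrower range in Tumor than in WT, with Sh2d1a, Cd5 and Cd2 given as examples. The ratio of Sh2d1a was 0.167 to 0.249 in Tumor and 0.0243 to 2.22 in WT. That of Cd5 was 0.765 to 1.28 in Tumor and 0.592 to 3.82 in WT, and that of Cd2 was 1.25 to 2.39 in Tumor and 0.171 to 1.86 in WT. For Slamf6 the Tumor ratios, 0.154 to 0.457, all lay below the WT ratios, 0.491 to 1.32. How many of all genes separated in this way was not counted, and 89.4% of all genes were called lower on T cell scaling. Against the reads unrelated to expression that are gauged below, Slamf6 held 0.544 to 2.99 times in WT and 2.01 to 9.70 times in Tumor. In 2 WT libraries it held fewer reads than that background. The part of such reads in the WT ratios of Slamf6 was not tested. The coefficient of variation of CPM between libraries ran from 23.4% (Sh2d1a) to 47.2% (Slamf6) in Tumor and from 40.6% (Cd84) to 96.6% (Sh2d1a) in WT.

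Divided by the gene lengths of the deposited table, the receptors fell into an abundant and a scarce set in Tumor. Cd2 stood at 309 ± 145 CPM per kilobase (SD, n = 5), Cd5 at 155 ± 67.4, Cd48 at 139 ± 39.1 and Cd6 at 97.2 ± 40.7. Slamf1 stood at 22.6 ± 6.93, Cd84 at 20.5 ± 6.58, Ly9 at 15.1 ± 3.67, Sh2d1a at 11.4 ± 2.67 and Slamf6 at 8.25 ± 3.90 CPM per kilobase. The ranges of Cd6 and Slamf1, the neighbours across that gap, did not overlap in Tumor, whereas those of every other pair of neighbours in this order did. Cd2 nevertheless exceeded Cd5 in 5 of 5 Tumor libraries, and Cd5 exceeded Cd48 in 3 of 5. In WT the levels ran from 31.7 ± 30.6 CPM per kilobase for Cd2 to 3.82 ± 2.92 for Slamf6, with overlapping ranges between all neighbours. For Cd5 (2069 bases) and Cd6 (3404 bases) these lengths are shorter than the merged exons of GENCODE M21 (4928 and 7968 bases). The levels of these genes per kilobase thus depend on the annotation. With its counts unchanged, Cd6 at the M21 length would overlap Slamf1 in Tumor, so the gap between the sets depends on the annotation too.

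As a share of the summed CPM per kilobase of the 9 genes, Cd2 made up 32.7 to 46.5% in Tumor and 2.40 to 52.0% in WT. Cd48 made up 11.8 to 24.5% in Tumor and 2.64 to 22.1% in WT. Slamf6 made up 0.587 to 1.93% in Tumor and 2.17 to 5.95% in WT. These ranges lay close but did not overlap, whereas those of each other gene of the 9 did. In WT, Slamf6 held 0.544 to 2.99 times the reads unrelated to expression that are gauged below, and 2 libraries held fewer than that background. The part of such reads in its WT shares was not tested. The sum itself was 466 to 1186 CPM per kilobase in Tumor and 38.2 to 195 in WT.

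Reads unrelated to expression would add to a gene in proportion to its length. Their rate was gauged from 1979 genes for odorant and vomeronasal receptors, proteins of sensory neurons, which held 3.88 to 8.85 reads per kilobase in Tumor libraries and 6.38 to 9.78 in WT libraries. Over that background Cd2 held 87.4 to 522 times the expected reads in Tumor and 0.602 to 29.1 times in WT, and Cd48 held 38.4 to 133 times in Tumor and 0.661 to 9.62 times in WT. Slamf6, the longest gene at 10832 bases, held 2.01 to 9.70 times the expected reads in Tumor and 0.544 to 2.99 times in WT, with 4 of 5 WT libraries under 2 times. Ly9 likewise had 4 of 5 WT libraries under 2 times, and Cd84 had 3. By the lengths of the deposited table, the 4 genes longer than 5 kilobases (Slamf6, Cd84, Slamf1 and Sh2d1a) had log2 fold changes of 1.12 to 2.16. The 5 shorter genes had 1.77 (Ly9) to 3.89 (Cd48), which overlaps the range of the longer genes. Whether gene length bears on these values was not tested. At its GENCODE M21 length of 7968 bases Cd6 (2.88) would be among the longer genes, so this split depends on the annotation. With this background subtracted the log2 fold changes of the 9 genes stayed above 0, from 0.77 ± 1.31 for Sh2d1a to 3.49 ± 1.25 for Cd48, and none of the 9 and none of 11686 genes was called by edgeR, with 2 of the 9 (Cd2 and Cd48) and 716 of all genes at an unadjusted p below 0.05.

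**Figure D3:**
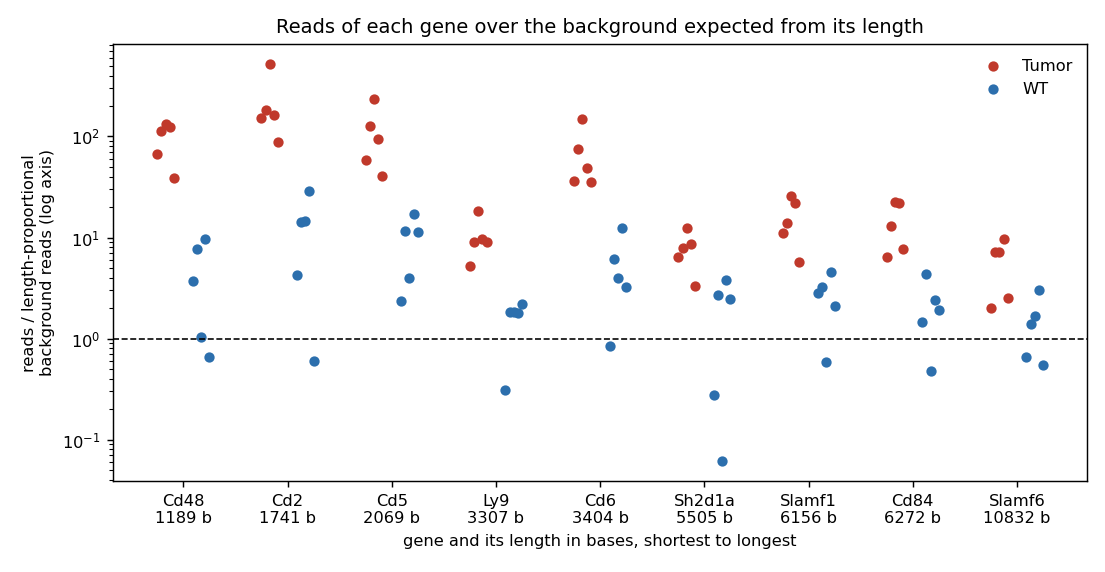
Reads of each gene in each library divided by the reads expected from its length and the library's rate over odorant and vomeronasal receptor genes (log axis), for Tumor (red, left of each pair) and WT (blue, right). Genes run from the shortest (Cd48, 1189 bases) to the longest (Slamf6, 10832 bases), and for Slamf6 4 of 5 WT libraries lie under 2, while those of Sh2d1a run from 0.0609 to 3.84 around the dashed line at 1.

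Ly9, Cd48, Slamf1, Cd84 and Slamf6 lie within 365 kilobases of chromosome 1. The SLAM receptor genes Cd244a and Slamf7 lie in the same stretch. Cd244a, whose gene overlaps Ly9 on the opposite strand without sharing exons in GENCODE M21, had a log2 fold change of 0.30 ± 0.88 (adjusted p = 0.887), and Slamf7 had -1.61 ± 0.99 (adjusted p = 0.427). Cd244a held 0 to 198 reads in Tumor libraries and 18 to 101 in WT libraries, and Slamf7 held 1 to 34 and 13 to 63. Whether these counts exceed reads unrelated to expression was not tested. Of 18 other protein coding genes tested within 250 kilobases of the cluster 1 was called, Pea15a (3.22 ± 0.57, adjusted p = 0.00842), and their median log2 fold change was -0.11. Cd5 and Cd6 lie next to each other on chromosome 19, 50.4 kilobases apart. Sh2d1a shares 1465 exon bases with Tenm1 on the opposite strand, and without a known strand setting their reads there cannot be told apart. Tenm1 held 16 to 77 reads in Tumor libraries and 10 to 139 in WT libraries.

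**Figure D4:**
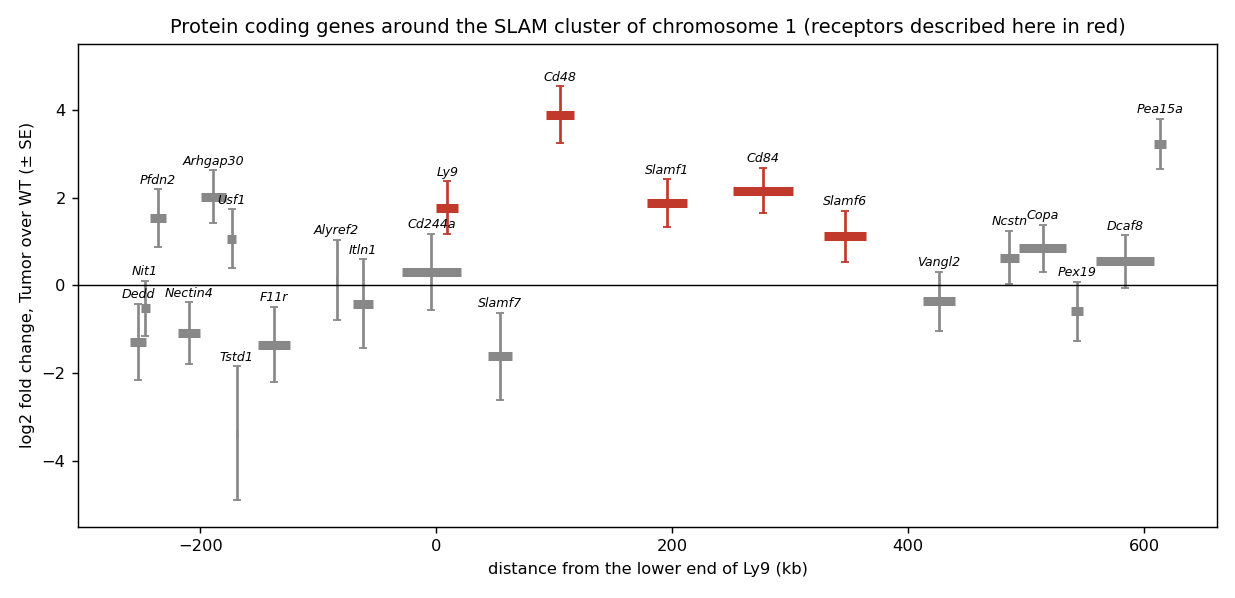
Log2 fold change of Tumor over WT (± SE) of tested protein coding genes around the SLAM cluster, placed by distance in kilobases from the lower end of Ly9, with bar widths showing gene spans. The 5 receptors described here (red) lie at 1.12 to 3.89, and the 18 other genes (grey) lie at -3.37 to 3.22.

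The 250 bases before the start of the genes are shown for Cd48, Cd84 and Cd5, which rose, and for Slamf6, the gene of the cluster with the smallest change. RefSeq (GRCm38.p6, the assembly of mm10) had an entry for 5 of the 9 genes. Windows run 5′ to 3′ toward the gene, and capitals mark matches to TGTGGT (RUNX factors), GGAAGT (ETS factors), GGAAAA (NFAT factors) or TATAAA, searched on both strands with no overlap between matches.
Cd48 upstream window, chr1:171681742-171681991, plus strand: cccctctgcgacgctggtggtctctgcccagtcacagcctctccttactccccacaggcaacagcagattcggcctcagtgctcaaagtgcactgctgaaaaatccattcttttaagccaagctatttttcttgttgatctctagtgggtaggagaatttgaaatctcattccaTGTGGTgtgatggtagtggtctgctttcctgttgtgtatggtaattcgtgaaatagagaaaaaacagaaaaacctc
Cd84 upstream window, chr1:171839447-171839696, plus strand: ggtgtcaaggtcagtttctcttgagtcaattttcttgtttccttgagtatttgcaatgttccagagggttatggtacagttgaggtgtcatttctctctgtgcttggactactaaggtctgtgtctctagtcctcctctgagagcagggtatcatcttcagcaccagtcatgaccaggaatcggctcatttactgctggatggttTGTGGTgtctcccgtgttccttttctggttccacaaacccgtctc
Slamf6 upstream window, chr1:171917212-171917461, plus strand: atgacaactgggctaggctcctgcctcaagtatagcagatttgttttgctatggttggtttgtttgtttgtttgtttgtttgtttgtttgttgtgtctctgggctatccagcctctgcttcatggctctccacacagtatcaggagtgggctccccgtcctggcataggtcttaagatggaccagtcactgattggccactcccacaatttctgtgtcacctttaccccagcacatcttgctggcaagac
Cd5 upstream window, chr19:10738975-10739224, minus strand: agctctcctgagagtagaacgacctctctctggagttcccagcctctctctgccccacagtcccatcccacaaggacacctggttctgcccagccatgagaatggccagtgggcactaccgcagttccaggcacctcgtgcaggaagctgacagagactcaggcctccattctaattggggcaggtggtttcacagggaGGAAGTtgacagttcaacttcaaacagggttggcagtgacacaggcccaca
Cd48 and Cd84 each held 1 match to TGTGGT, Cd5 held 1 match to GGAAGT, and neither Slamf6 nor Slamf1, whose window is not shown, held a match to any of the 4 motifs. Over 32841 windows of the same length, 14.0% held TGTGGT, 19.7% GGAAGT, 20.4% GGAAAA and 12.4% TATAAA, so these matches are a description of the sequence.

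Genes that act with these receptors were read from lists. None of the 4 other SLAM family receptors tested passed in either direction by edgeR, DESeq2 or limma voom (0 at an unadjusted p below 0.05), and their median log2 fold change was -0.93. The most abundant of them per length were Slamf9 (-0.26 ± 0.82) and Cd244a. Slamf7, Slamf8, Slamf9 and Cd244a held 1 to 34, 1 to 52, 35 to 145 and 0 to 198 reads in Tumor libraries. In WT libraries they held 13 to 63, 8 to 81, 4 to 142 and 18 to 101 reads. Whether these counts exceed reads unrelated to expression was not tested. None of 9 tested SAP family adaptors and signalling partners passed by edgeR (median 0.30, 4 with an unadjusted p below 0.05, all higher, and 2 called higher by DESeq2), with Csk, an inhibitor of Src family kinases, at 1.74 ± 0.54 (adjusted p = 0.122) and the kinase gene Fyn at 1.56 ± 0.59 (0.206). None of 7 genes whose products bind the CD2 tail or act with it passed by edgeR (median 1.25, 3 with an unadjusted p below 0.05, all higher, and 3 called higher by DESeq2). Among these Pstpip1, a cytoskeletal adaptor that binds CD2, was at 2.27 ± 0.57 (adjusted p = 0.0502) and the Arp2/3 subunit gene Arpc5 at 1.25 ± 0.76 (0.425). None of 12 partners and ligands of CD5 and CD6 passed by edgeR (median 1.52, 6 higher and 1 lower with an unadjusted p below 0.05, 3 called higher by DESeq2), with the casein kinase subunit gene Csnk2b at 1.77 ± 0.76 (adjusted p = 0.263) and the adaptor gene Sh2d2a at 2.50 ± 0.74 (0.103). The CD6 ligand genes Alcam and Cdcp1, named after their values were seen, were at -0.80 ± 0.55 (adjusted p = 0.472) and -1.74 ± 0.74 (0.257). Of the 12 T cell reference genes 6 were called higher and the median was 2.83, with the receptor complex genes Cd3g and Cd247 at 3.78 ± 0.73 and 3.29 ± 0.66 (adjusted p = 0.0153 and 0.0176) and the adaptor gene Lat at 3.50 ± 0.70 (0.0178). Of 7 genes of the sort and of Tregs 1 was called, Il2ra, which encodes CD25 (3.30 ± 0.81, adjusted p = 0.0436), and all 7 had an unadjusted p below 0.05 as higher in Tumor.

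The genes whose profile over the 10 libraries lay nearest to the mean profile of the 9 receptors were sought among 16183 protein coding genes, by the root mean square difference of log2 CPM after each gene's own mean was removed. They were Akna, a transcription factor gene (0.301 log2 units), the formin gene Fmnl1 (0.326), Tent5c, a poly(A) polymerase gene (0.330), Acap1, which encodes a GTPase-activating protein of vesicle traffic (0.330), and the T cell kinase gene Lck (0.341). Akna stood at 222 to 341 CPM in Tumor and 22.9 to 66.2 CPM in WT. Of the receptors themselves Cd5 was nearest to that mean profile (0.465) and Cd2 farthest (1.37).

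Cells other than Tregs express some of these receptors, Cd48 and Cd84 on myeloid cells and Cd5, Ly9 and Cd84 on B cells among them. Of 10 macrophage and monocyte genes 5 were called higher (Lyz2, C1qa, C1qb, C1qc and Apoe), and the 10 summed to 1425 to 6112 CPM in Tumor and 54.9 to 169 CPM in WT, where C1qa, Apoe and Itgam were at 0 in at least 1 library. Adgre1, which encodes the macrophage marker F4/80, stood at 3.90 to 19.9 CPM in Tumor and 6.57 to 19.3 CPM in WT. In Tumor replicates 1 to 5 the sums were 1425, 6112, 1805, 2047 and 5471 CPM. Replicate 1, with the lowest sum, had the lowest Cd84 (80.4 CPM), and replicate 2, with the highest sum, had the highest Cd48 (214 CPM). Cd84 was highest in replicate 4 (185 CPM), and Cd48 was lowest in replicate 5 (92.7 CPM). None of 6 B cell genes was called by edgeR (0 at an unadjusted p below 0.05, 0 by DESeq2), and they summed to 40.6 to 77.2 CPM in Tumor and 40.1 to 183 CPM in WT. No gene of the other lists was called by edgeR. These were 3 plasma cell genes (0 at an unadjusted p below 0.05), 7 dendritic cell genes (2 higher at that level, 1 called by DESeq2), 10 epithelial genes (3 lower), 5 genes of CD8 T and NK cells (1 higher), 5 of mast cells and platelets (1 higher, 1 called by limma voom with quality weights) and 6 of stroma and endothelium (0). The part of myeloid RNA in the values of Cd48 and Cd84 was not tested.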

How the data were processed

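RNA was measured in 10 Treg libraries, 5 Tumor and 5 WT, grouped and numbered by their titles. The deposited values were whole-number read counts per gene, not normalized, and the 10 single-sample files held the same counts as the table of the series, which was used. Reads were aligned with HISAT2 2.0.5 and counted with featureCounts 1.5.0-p3 on mm10, per the submitters' processing notes. Which annotation release was used, whether strand was counted and how reads with several positions were handled are not given in the sources used here. The reads carry no molecular identifiers.

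Counts were tested in R 4.3.3 with edgeR 4.0.16 (filterByExpr defaults, minimum count 10 and minimum total 15, TMM factors, robust quasi-likelihood F test, 2-sided, group as the only term, Benjamini-Hochberg adjustment over 21414 genes, called below 0.05). The common dispersion was 0.742. A standard error is the log2 fold change divided by the square root of F. In the T cell scaling each library was scaled to the geometric mean of count + 0.5 over 12 genes, not all of which are reported here by name. Only the edgeR fit with TMM factors was run on simulated counts with known fold changes, and the T cell scaling and the other alternatives were not. All 45 pairs of libraries differed by more than sampling noise (chi-square over its degrees of freedom at least 25.7).

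The genes, the lists and the alternatives were chosen with earlier results of these data known, and 2 alternatives were added after seeing the data. All 9 receptors were named. From each other list the rule took the called genes with the 3 smallest p or, without a call, the 2 most abundant per length, and it took the 5 nearest profiles. Lists were only counted, with no test. Alternatives used DESeq2 1.42.0, limma 3.58.1 and sva 3.50.0 and are given in the closing section.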

Additional observations from a re-analysis of the deposited data

Results flagged for a closer look

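Sh2d1a in Tumor replicate 5 stood apart from the other Tumor libraries, at 36.9 CPM against 63.7 to 71.7 CPM in Tumor replicates 1 to 4, a gap that exceeded Dixon's critical value for 5 samples. Of 18 groups of 5 libraries examined (9 genes in Tumor and in WT) it was the 1 that stood out so, and chance alone gives about 1 in 20.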

How the results depend on the processing

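Under the 26 alternatives other than T cell scaling all 234 log2 fold changes of the 9 genes stayed above 0, and Cd48 lay between 3.49 and 4.53. The alternatives at an adjusted p below 0.01 and with an added limit on the fold change altered only the threshold. Their fold changes therefore repeat those of the main fit. The count of 340 genes called (293 higher, 47 lower) became 2237 with DESeq2 (645 higher, 1592 lower), 768 with limma voom and quality weights, 820 with no filter, 52 at an adjusted p below 0.01, 141 with the replicate number as a block, 772 with 1 surrogate variable, 0 with the length-proportional background subtracted, 1993 without WT replicates 1 and 2, 1325 without WT replicates 3 to 5 (696 higher, 629 lower), and 65 to 417 with 1 library left out. Of the 9 receptors 4 were called, and 1 (Cd48) with RLE, upper-quartile or no composition factors, with a filter of 10 CPM in 5 libraries, at an adjusted p below 0.01 and with the replicate block. With limma voom and quality weights 7 were called, with the background subtracted 0, without WT replicates 3 to 5 all 9 (median log2 fold change 3.27), and with 1 library left out 1 to 4. The cause of these changes was not tested. The replicate numbers did not pair the samples: same-numbered libraries had correlations of deviations from -0.11 to 0.033, and none of the 5 Tumor libraries correlated best with its own number.

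T cell scaling called 19162 genes, with 0 receptors higher and 1 lower (Slamf6; median -1.22). It called 21433 without WT replicates 3 to 5, with 0 receptors higher and 2 lower (Slamf1 and Cd84; median -0.12), and 14235 without WT replicates 1 and 2, with 0 higher and 2 lower (Slamf6 and Sh2d1a; median -1.01). In that order of library sets its values below 0 were -1.55, -1.95 and -1.19 for Slamf1, -1.72, -1.49 and -1.85 for Slamf6, -1.32, -0.12 and -1.79 for Ly9, -1.22, -1.49 and -1.01 for Cd84, and -1.79, -0.87 and -2.18 for Sh2d1a. Cd5 was at -0.46 with all libraries and -0.82 without WT replicates 1 and 2, and Cd6 at -0.30 without WT replicates 1 and 2. With all libraries this scaling moved the median of all genes by -3.33. The RLE, upper-quartile and unscaled fits, DESeq2, the surrogate variable and the background subtraction moved it by -0.51 to 0.22. Read counts were lowest in WT, where Sh2d1a, Cd48 and Cd2 fell to 3, 6 and 8 reads in single libraries. The part of library depth in these low counts was not tested.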

Other observations

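Single WT libraries held few reads of one receptor beside many of another. WT replicate 5 held 8 reads of Cd2 and 6 of Cd48 beside 179 of Cd5 and 104 of Sh2d1a, whereas WT replicate 3 held 229 reads of Cd2 beside 3 of Sh2d1a. In each Tumor library Cd2 had more reads than Cd5, and Sh2d1a held 161 to 442 reads. The gene next to Cd6, the peptide transporter gene Slc15a3, had a log2 fold change of 3.73 ± 0.61 (adjusted p = 0.00612), with 127 to 369 CPM in Tumor and 9.26 to 32.4 CPM in WT, and was at 0.50 after T cell scaling. It was named after its values were seen.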
